A study of Homo sapiens with 6 samples.

Results

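Caveolae are small flask-shaped pits of the plasma membrane, and 5 of the 6 genes described here encode proteins of their coat: CAV1, CAV2, CAVIN1, CAVIN3 and EHD2. The 6th gene, CTTN, encodes cortactin, which binds actin filaments. The genes were picked by name out of 34905 genes with a matched transcript. Earlier results of these libraries were known when they were picked, including the difference by replicate number. For these 6 genes that difference is therefore described without a test, and p-values for it are given only for other genes.

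The libraries hold polyadenylated RNA of THP1, a monocytic cell line established from human acute myeloid leukaemia. Of the 3 labelled groups, each with replicates numbered 1 and 2, shCtrl is given the genotype wild-type, shA5 the genotype ALKBH5 knock-down and A5-res the genotype ALKBH5 rescue. ALKBH5 is the demethylase that takes the N6-methyladenosine mark off RNA. The sources used here describe neither the hairpin and rescue constructs nor whether a group is a clone or a pool. Nothing in the labels ties the replicates to separate cultures, and a p-value here reflects only how far these 6 libraries scatter, which may be technical.

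The libraries held 14534386 to 24857373 estimated counts each. ALKBH5, the gene targeted, went against the labels: it lay at 12.4 to 14.6 CPM (counts scaled to a common library size) in the 3 libraries numbered 1 and at 968 to 1097 CPM in the 3 numbered 2. The first principal component, with 65.3% of the variance, separated the numbers as well. Whether sample titles or tables are crossed was not tested, so every group and number below is that of the title and groups are named as "labelled". All 12 monocytic markers looked for (among them SPI1, CD33, CSF1R and LYZ) passed the filter on low counts. Of 10 endothelial markers 8 were under 1 CPM in every library, among them CDH5, VWF, KDR and TEK. PECAM1 of that list lay at 285.5 to 451.6 CPM and ESAM reached 1.09 CPM. All 5 adipocyte markers were under 1 CPM in every library, as were 8 of 9 epithelial markers, while CLDN4 reached 1.01 CPM. COL3A1 and LUM of fibroblasts and KRT5, KRT14, KRT18 and KRT19 of epithelia had no count, while PDGFRA, PDGFRB, MYH11 and TAGLN of the fibroblast and smooth muscle list averaged over 1 CPM. Endothelium, adipocytes, fibroblasts and smooth muscle are the cell types best known for abundant caveolae.

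Caveolins insert into the inner leaflet of the membrane and assemble with cavins, which form the outer coat. CAV1 is the caveolin without which caveolae do not form outside striated muscle, and CAV2 joins it in hetero-oligomers. CAVIN1 is the cavin that all caveolae need, CAVIN3 is a further coat subunit, and EHD2 is an ATPase at the neck that holds the pit at the surface. Cortactin binds the Arp2/3 complex and stabilises branched actin at membrane ruffles, endocytic pits, podosomes and invadopodia, and is a substrate of Src family kinases. Cells of blood lineage mainly use its relative HCLS1 in that place.

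CAV1 (ENSG00000105974.11) lies at chr7:116524785-116561184 of GRCh38, plus strand, and CAV2 (ENSG00000105971.14) at chr7:116287380-116508541 on the same strand, with 16243 bases between them. CAVIN1 (ENSG00000177469.12) lies at chr17:42402452-42423517, minus strand, and CAVIN3 (ENSG00000170955.9) at chr11:6318946-6320647, minus strand. EHD2 (ENSG00000024422.11) lies at chr19:47713343-47743134 and CTTN (ENSG00000085733.15) at chr11:70398404-70436584, both on the plus strand. Annotated genes on the opposite strand overlap CAV1, CAV2, CAVIN3 and CTTN, and a lincRNA on the same strand overlaps EHD2. These overlaps are of whole gene spans, and overlap of exons was not examined. Whether the quantification used strand is not known from the sources used here. Where exons overlap on opposite strands, reads of the antisense partner may therefore not be told apart from those of the gene.

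The sequences below are those on which the transcript results turn. The first is the coding stretch that separates the 2 main CAV1 proteins, from the start codon of CAV1-201 to the start codon that CAV1-202 uses. It runs over an intron (chr7:116525063-116526590, plus strand, GRCh38, spliced to 96 bases, of which 31 codons are absent from CAV1-202), and the capitals mark the pair of start codons. The second is exon 11 of CTTN-201 (chr11:70421470-70421580, plus strand, 111 bases, 37 codons), which CTTN-202 lacks. It encodes 1 of the tandem repeats through which cortactin binds actin filaments.
CAV1-201 from its own start codon to that of CAV1-202: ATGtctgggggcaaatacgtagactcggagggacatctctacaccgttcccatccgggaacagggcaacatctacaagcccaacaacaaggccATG
CTTN-201 exon 11: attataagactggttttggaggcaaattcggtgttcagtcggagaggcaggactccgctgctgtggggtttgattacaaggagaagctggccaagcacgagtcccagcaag

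The next pair shows the bases just upstream of the transcription start that held most CAV1 counts and of the EHD2 start, since the 2 genes behaved differently across the libraries. Both come from the RefSeq promoter table (GRCh38.p14, plus strand), cut to the bases before the first annotated exon, with GGGCGG in capitals. CAV1 is shown at chr7:116526112-116526276 (165 bases) and EHD2 at chr19:47713172-47713342 (171 bases).
CAV1 before the downstream start: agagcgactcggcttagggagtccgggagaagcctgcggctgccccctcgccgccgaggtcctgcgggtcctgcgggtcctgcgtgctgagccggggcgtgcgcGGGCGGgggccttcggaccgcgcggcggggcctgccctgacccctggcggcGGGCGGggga
EHD2 before its start: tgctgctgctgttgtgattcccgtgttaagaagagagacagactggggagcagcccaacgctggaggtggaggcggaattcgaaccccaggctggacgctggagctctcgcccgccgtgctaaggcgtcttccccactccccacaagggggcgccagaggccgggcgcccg
In the whole 250-base windows of the table, GGGCGG was searched on both strands with CCAAT and TATAAA. The CAV1 downstream window held GGGCGG 2 times, the windows of the upstream CAV1 starts 3 times each, the first CAV2 window 6 times and the EHD2 window 1 time, the last outside the bases printed. Of 35116 promoters in the table, 42.6% held GGGCGG, 32% CCAAT and 10.7% TATAAA, and no window of CAV1, CAV2 or EHD2 held either of the last 2 motifs. The CAV1 downstream window was 73.2% G and C with 29 CpG, and the EHD2 window 69.6% with 20, against medians of 58% and 11 CpG over all promoters. A match is a description of the letters, not a bound site.

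CAV1 was measured at 6.51, 7.43 and 6.82 CPM in the libraries numbered 1 labelled shCtrl, shA5 and A5-res, and at 0.851, 0.840 and 0.554 CPM in those numbered 2. The lowest library numbered 1 was thus well above the highest numbered 2, within every group. These levels rest on 90, 130 and 157 counts against 16, 16 and 9 counts. A count of 9 has an exact 95% Poisson interval of 4.12 to 17.1, and 16 has 9.15 to 26.0. Such intervals cover counting error only, since PCR reads without molecular identifiers are not independent molecules. The mean was 6.92 ± 0.467 CPM (SD, n = 3, 1 library per group) in number 1 and 0.748 ± 0.169 CPM (SD, n = 3) in number 2. CAV1 was 7.64-fold higher in number 1 among libraries labelled shCtrl, 8.84-fold among shA5 and 12.3-fold among A5-res. In RNA of whole cultures, fewer cells with the transcript and less transcript per cell cannot be told apart.

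CTTN followed the same split. It was measured at 26.0, 25.9 and 24.5 CPM in the libraries numbered 1 (shCtrl, shA5 and A5-res as labelled) and at 3.62, 2.78 and 3.32 CPM in those numbered 2. All 3 libraries of number 1 were again far above all 3 of number 2. The counts behind these levels were 359, 453 and 565 against 68, 53 and 54. CTTN averaged 25.5 ± 0.797 CPM (SD, n = 3) and 3.24 ± 0.424 CPM (SD, n = 3), and the ratio of number 1 to number 2 was 7.18 in shCtrl, 9.30 in shA5 and 7.39 in A5-res. In the deposited TPM (abundance scaled for transcript length) that ratio of means was 4.82 for CTTN, against 7.86 in CPM, and 8.26 for CAV1, against 9.25 in CPM.

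EHD2 lay at 18.9, 18.7 and 18.1 CPM in the libraries numbered 1 and at 23.1, 20.3 and 19.8 CPM in those numbered 2. The 2 sets of CPM values did not overlap, but the step between them was small: 18.6 ± 0.458 against 21.1 ± 1.80 CPM (SD, n = 3 each). In TPM the sets did overlap, with 10.0 to 10.6 in number 1 and 10.4 to 11 in number 2. EHD2 was thus the member with the narrowest range over the 6 libraries, relative to its level.

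CAV2, the partner of CAV1 in hetero-oligomers and its neighbour on chromosome 7, was scarce. It lay at 1.16, 1.03 and 0.999 CPM in the libraries numbered 1 and at 0.798, 1.05 and 0.554 CPM in those numbered 2, on 9 to 23 counts per library. The library labelled shA5 replicate 2 stood within the range of number 1, so the numbers overlapped.

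CAVIN3 lay at 1.88, 1.26 and 2.65 CPM in the libraries numbered 1 and at 1.60, 1.21 and 0.861 CPM in those numbered 2. The 2 extremes were the libraries labelled A5-res, with 61 counts in replicate 1 and 14 in replicate 2. The other 4 libraries lay between them, and the numbers overlapped.

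CAVIN1 had 4, 6 and 4 counts in the libraries numbered 1 and 4, 3 and 5 in those numbered 2, which is 0.157 to 0.343 CPM. It did not pass the filter on low counts and was not tested, so 5 of the 6 genes enter the tests below. At this depth no difference between libraries was detectable for it.

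**Figure D1:**
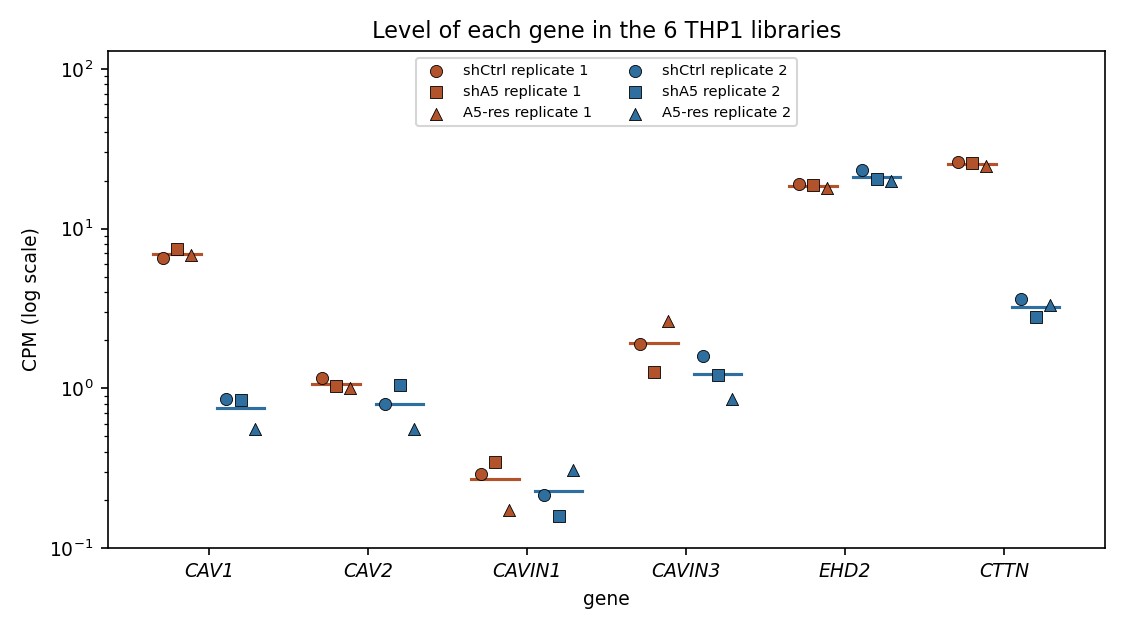
CPM on a log scale for each gene in the 6 libraries, with colour for the replicate number, symbol for the labelled group and a bar for the mean of 3 libraries. CAV1 and CTTN stand apart by number in every group, while the points of CAV2, CAVIN1 and CAVIN3 overlap and those of EHD2 lie between 18.1 and 23.1 CPM.

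Compared per length, the order of the genes differed between the numbers. In all 3 libraries numbered 1 it ran CTTN, EHD2, CAV1, CAVIN3, CAV2 and CAVIN1 by TPM. There the ranges were 14.5 to 15.9 TPM for CTTN, 10.0 to 10.6 for EHD2 and 5.22 to 6.13 for CAV1, with no overlap between these neighbours. Below them CAVIN3 ranged from 1.58 to 3.16 TPM and CAV2 from 1.08 to 1.62, which overlapped. In all 3 libraries numbered 2 EHD2 came first, at 10.4 to 11 TPM, and CTTN came next, at 2.71 to 3.39. CAVIN3 (1.45 to 2.03), CAV2 (0.444 to 1.87) and CAV1 (0.524 to 0.949) then overlapped, and their order changed from library to library. CAVIN1 was last in all 6, at 0.0465 to 0.112 TPM.

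The difference between the numbers is given as a description, because it was known when the genes were picked. In a fit of group and number to all 14497 genes tested, the log2 difference of number 2 from number 1 was -3.19 for CAV1, -2.98 for CTTN, -0.64 for CAVIN3, -0.42 for CAV2 and 0.18 for EHD2. The CPM values of 3 of the 5 did not overlap between numbers, against 57.7% of all genes. The median of the 5 was -0.64 and that of all tested genes 0.01. ALKBH5 was 75.1-fold, 80.9-fold and 71.4-fold higher in number 2 in the pairs labelled shCtrl, shA5 and A5-res, and its part in the difference of CAV1 and CTTN was not tested. Leaving out any single library kept CAV1 between -3.33 and -3.02 and CTTN between -3.04 and -2.85. CAVIN3 and CAV2 moved more, from -0.90 to -0.14 and from -0.68 to -0.22, while EHD2 stayed between 0.14 and 0.22.

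The libraries were then compared by labelled group. Since ALKBH5 followed the replicate number and not these labels, the comparison is between labels and not between known levels of ALKBH5. No tested member was called different between groups in any of the 3 comparisons. With edgeR's quasi-likelihood test across all 6 libraries, the 15 log2 fold changes (5 genes, 3 comparisons) ran from -0.49 to 0.53, and the lowest adjusted p was 1 after rounding. Across all genes the test called 0% in each comparison, with 38, 43 and 46 genes at an unadjusted p under 0.05 for shA5 against shCtrl, A5-res against shA5 and A5-res against shCtrl. DESeq2 called 0 in each as well.

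That fit holds the number difference in its spread, so its intervals for CAV1 and CTTN were very wide. CAV1 differed by 0.18 between the libraries labelled shA5 and shCtrl, with an SE of 1.46 (n = 2 per group), and CTTN by -0.04 with an SE of 1.39. With the replicate number as a block the 15 values ran from -0.50 to 0.46, the lowest adjusted p was 0.978, and all 95% intervals lay within -1.43 to 1.38. Across all genes the blocked fit called 0.0069% (1 gene), 0% and 0.0069% (1 gene) in the same order of comparisons, none of them a gene described here. These counts depended on single libraries. With A5-res replicate 1 left out they were 420, 54 and 764, and with A5-res replicate 2 left out 393, 1005 and 101. With shA5 replicate 1 left out they were 25, 17 and 35, with shA5 replicate 2 left out 17, 38 and 36, and with shCtrl replicate 1 left out 4, 0 and 2. No member was past the threshold in any of these fits.

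In the blocked fit, CAV1 was at 0.13 (SE 0.26, 95% interval -0.45 to 0.71) for shA5 against shCtrl and at -0.22 (SE 0.25, -0.78 to 0.35) for A5-res against shA5. CTTN was at -0.13 (SE 0.17, -0.51 to 0.24) and 0.03 (SE 0.17, -0.34 to 0.40). EHD2 was at -0.11 (SE 0.14, -0.41 to 0.20) and -0.04 (SE 0.14). For these 3 genes the blocked 95% intervals lay inside a 2-fold change between labelled groups in either direction. They assume the same group difference in both numbers. The fit has 2 residual degrees of freedom, to which edgeR adds others by sharing the estimate of spread across genes. The intervals use that larger total, so their width depends on the sharing. Within number 2 alone CAV1 had 16, 16 and 9 counts, so a 2-fold change there is not excluded.

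CAV2 and CAVIN3 were known less well. CAV2 stood at 0.11 (SE 0.41, -0.80 to 1.03) and -0.43 (SE 0.41, -1.35 to 0.50), and CAVIN3 at -0.50 (SE 0.42, -1.43 to 0.44) and 0.46 (SE 0.41, -0.46 to 1.38). For A5-res against shCtrl, the blocked values were -0.09 for CAV1, -0.10 for CTTN, -0.15 for EHD2, -0.31 for CAV2 and -0.04 for CAVIN3. The 3 comparisons share libraries, so they are not separate evidence of a direction.

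Within a number the direction often differed. For A5-res against shA5, the log2 CPM of CAVIN3 differed by 1.01 within number 1 and by -0.44 within number 2, and for A5-res against shCtrl by 0.47 and -0.81. CAV2 differed by -0.15 and 0.35 for shA5 against shCtrl. CTTN was at -0.08 and 0.25 for A5-res against shA5, and CAV1 at 0.07 and -0.53 for A5-res against shCtrl. EHD2 stayed between -0.22 and -0.02 within both numbers in the 3 comparisons.

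**Figure D2:**
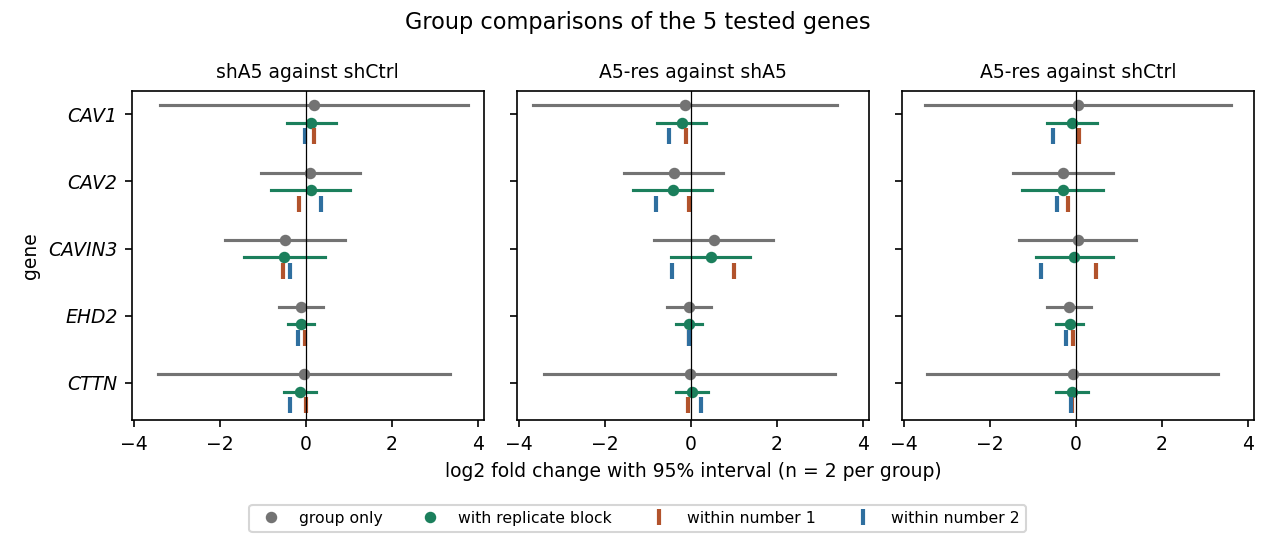
Log2 fold changes of the 5 tested genes for the 3 comparisons of labelled groups, with 95% intervals, from the fit on group alone (grey) and with the replicate block (green). Vertical ticks give the log2 CPM difference within number 1 and within number 2; every interval crosses 0, and those of CAV1 and CTTN are the ones that narrow most with the block.

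Most CAV1 counts were assigned to transcripts that begin downstream. CAV1-202 (2 exons, start at 116526293) encodes a protein of 147 residues, known as the beta isoform, and CAV1-201 (start at 116524785) the full-length alpha isoform of 178 residues. CAV1-202 received an estimated 73.3, 112 and 133 counts in the libraries numbered 1 and 14.9, 12.9 and 8.03 in those numbered 2. CAV1-201 received 3.24 counts in the library labelled shCtrl replicate 1 and none in the other 5. CAV1-202 and a transcript that starts just before it, at 116526277, together held 87.7% of the 377 CAV1 counts of number 1 and 87.5% of the 41 of number 2. By estimated counts the share of the downstream start thus hardly differed between the numbers, while the total did. Its share of the TPM was lower in every library. By TPM, which divides by length, short transcripts weighed more: CAV1-204 (598 bases), from the upstream start region, reached 2.86 TPM on 14.9 counts in the library labelled shA5 replicate 1, beside 3.13 TPM for CAV1-202. In the library labelled shA5 replicate 2 it was above CAV1-202, at 0.589 against 0.360 TPM. The whole gene had 0.949 TPM there, so the downstream start held the smaller part. CAV1-204 had no count in both libraries labelled shCtrl and in that labelled A5-res replicate 2. The full-length and short proteins share all residues after the stretch printed above, so a read from the shared exons is divided by an estimate rather than observed.

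For CTTN, the most counted transcript was CTTN-202 (17 exons, 513 residues), which lacks the exon 11 printed above. It received 235, 381 and 441 counts in number 1 and 45.2, 38.2 and 24.6 in number 2. CTTN-201, with that exon (18 exons, 550 residues), received 71.5, 13.7 and 45.5 counts in number 1 and 0, 0 and 11.6 in number 2. CTTN-202 held 76.6, 96.5 and 90.7% of the counts of the 2 transcripts in number 1 and 100, 100 and 68.0% in number 2. The libraries labelled shCtrl replicate 1 and A5-res replicate 2 had the largest shares with the exon, so the share followed neither number nor group.

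Coding transcripts of CTTN held 86.6% of its 1377 counts in number 1 and 68.1% of its 175 counts in number 2. Transcripts with a retained intron held 10.7% and 16.3%, and processed transcripts 2.49% and 15.1%. CTTN-204, a processed transcript, held 16.3% of CTTN counts in the library labelled shCtrl replicate 2, 13% in that labelled A5-res replicate 2 and none in that labelled shA5 replicate 2. In TPM, the step from number 1 to number 2 was steeper for CTTN-202, which went from 6.48, 8.36 and 6.82 TPM to 0.937, 0.838 and 0.647 TPM, than for the gene as a whole.

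EHD2 counts lay mainly on EHD2-201 (543 residues), which held 79.4 to 95.8% of the gene's counts in all 6 libraries. EHD2-202 (407 residues) varied from 3.45 counts in the library labelled A5-res replicate 1 to 51.6 in that labelled shA5 replicate 2, with no split by number. CAVIN3-201 held 93.0% or more of the CAVIN3 counts in 5 libraries and 35.3% in that labelled A5-res replicate 2, where it had 4.94 of 14 counts. CAV2 counts were divided between coding and processed transcripts, with 50.5% on coding ones in number 1 and 52.3% in number 2.

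**Figure D3:**
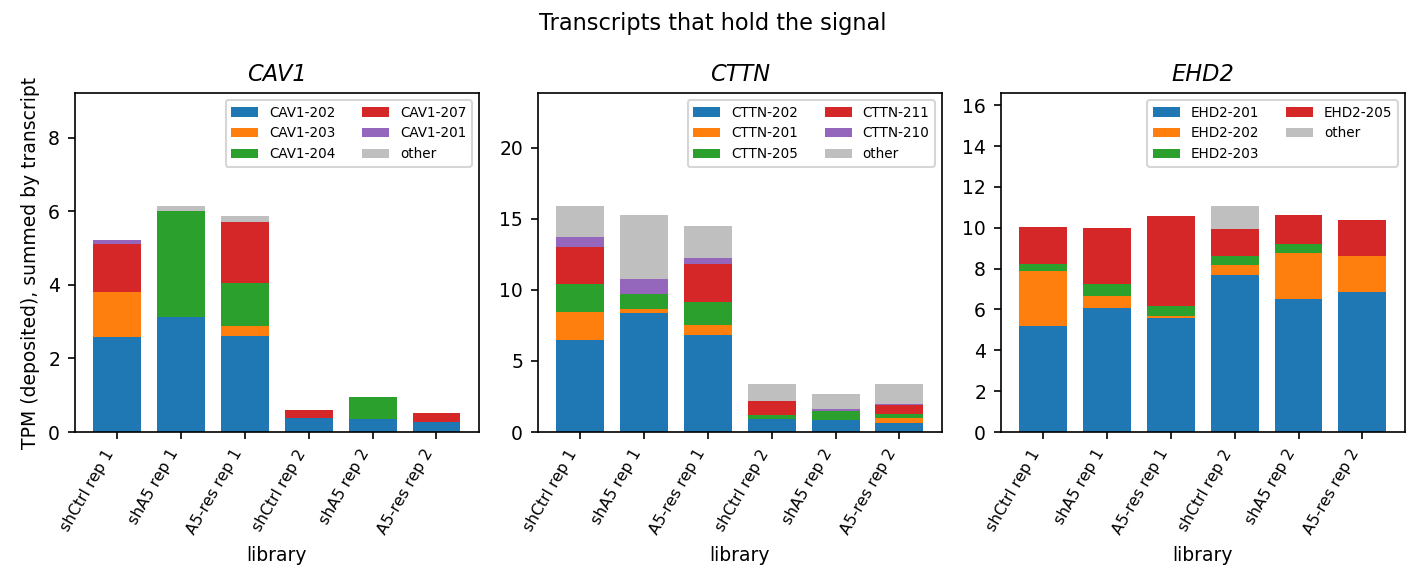
Deposited TPM of the transcripts of CAV1, CTTN and EHD2, stacked in each of the 6 libraries, numbers 1 on the left and 2 on the right. CAV1-202 and CTTN-202 are the blue blocks that shrink in number 2, and EHD2-201 stays between 5.20 and 7.71 TPM.

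No tested neighbour of the members fell as far as CAV1 or CTTN. Of 20 distinct protein-coding neighbours outside the set (2 per side where the annotation gives them), 16 were tested, and 3 were higher and 5 lower in number 2 by edgeR's adjusted p under 0.05. Of all 14497 genes, 45.4% passed that test (22.8% higher and 22.6% lower). MET, the hepatocyte growth factor receptor, lies 111205 bases beyond CAV1 and fell from 9.0 ± 0.765 to 4.59 ± 0.106 CPM (SD, n = 3 each; log2 -0.97, edgeR adjusted p = 0.000735). TES, the focal adhesion protein testin, 28596 bases before CAV2, fell by 0.34 on the log2 scale (edgeR adjusted p = 0.0194). That distance is to the start of a processed CAV2 transcript at 116287380, while the coding CAV2 transcripts start at 116499390 or later. CAPZA2, a subunit of the actin capping protein beyond MET, was at 0.27 (edgeR adjusted p = 0.413).

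Beside CTTN, PPFIA1 lies 13091 bases before it and was at 98.0 ± 9.53 and 103 ± 4.05 CPM (SD, n = 3 each; log2 0.07, edgeR adjusted p = 0.501). FADD, the adaptor of death receptors, fell by 0.31 on the log2 scale (edgeR adjusted p = 0.031), and SHANK2 was too low to test. NOP53, 2387 bases beyond EHD2, was at -0.07 (edgeR adjusted p = 0.558). APBB1, 74476 bases beyond CAVIN3, rose from 2.21 ± 0.463 to 6.99 ± 0.145 CPM (SD, n = 3 each; log2 1.66, edgeR adjusted p = 0.000146).

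CAV1 and CTTN were close to each other in their pattern. Over the 6 libraries, the root mean square distance between their centred log2 CPM was 0.23, while CAV1 stood 1.28 from CAVIN3, 1.34 from CAV2 and 1.62 from EHD2. Among the 10595 protein-coding genes that averaged 5 CPM or more, the same 3 genes came nearest to each of them. These were SPP1, which encodes the secreted phosphoprotein osteopontin (0.151 from CAV1 and 0.161 from CTTN), CEACAM6, a surface adhesion glycoprotein (0.221 and 0.196), and FCRLA, an Fc receptor-like protein (0.315 and 0.228). CEACAM6 lay at 17.7 ± 0.316 CPM in number 1 and 2.54 ± 0.209 in number 2 (SD, n = 3 each), and FCRLA at 12.4 ± 0.431 and 2.07 ± 0.147. Such distances describe 6 libraries that differ mainly by number.

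The genes nearest to EHD2 were CEP164, a centriole protein (0.0172), INAVA (0.0186) and HK1, the hexokinase (0.0197). For CAV2 they were RAB9A, a GTPase of late endosomes (0.114), SKIV2L, an RNA helicase (0.130), and PRRC2A (0.135). For CAVIN3 they were AC015813.2 (0.171), MTLN, which encodes the mitochondrial micropeptide mitoregulin (0.191), and C1orf122 (0.215).

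Transcripts of the other proteins of the caveolar coat and neck were partly scarce. CAV3, CAVIN2, CAVIN4, PACSIN1 and EHD3 were under 1 CPM in every library, though CAVIN4 passed the filter on low counts. Of the 12 genes in that list 8 were tested, with 2 higher, 4 lower and 2 not past the threshold in number 2. Over all tested genes 22.8% were higher and 22.6% lower. The list had a median log2 difference of -0.22 against 0.01 over all tested genes. EHD1, the relative of EHD2 in endosome recycling, fell from 159 ± 4.58 to 79.6 ± 3.27 CPM (SD, n = 3 each; log2 -0.99, edgeR adjusted p = 2.95e-05). EHD4 fell from 121 ± 2.90 to 86.9 ± 7.60 CPM (edgeR adjusted p = 0.00192). In both genes the CPM of the 2 numbers did not overlap, as was also so for EHD2 and for 57.7% of all tested genes. In TPM the numbers stayed apart for EHD1 and EHD4 but overlapped for EHD2.

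PACSIN3, a membrane-bending protein of caveolae in muscle, fell by 0.56 on the log2 scale (edgeR adjusted p = 0.0109), and PACSIN2, which shapes the caveolar neck, was at -0.20 (edgeR adjusted p = 0.102). Of the dynamins, which cut vesicles from the membrane, DNM2 fell by 0.25 (edgeR adjusted p = 0.0355) while DNM1 rose by 0.31 (edgeR adjusted p = 0.0143). The scarcer DNM3 rose by 0.78 (edgeR adjusted p = 0.0208). In TPM the numbers overlapped for DNM2 and DNM3 but not for DNM1. Flotillins and stomatins mark other membrane domains: 7 of 8 were tested, 0 were higher and 3 lower (STOM, STOML2 and ERLIN1), with a median of -0.24. Over all tested genes 22.8% were higher and 22.6% lower. STOM, with the largest fall of the 3, went from 197 ± 3.21 to 125 ± 5.89 CPM (SD, n = 3 each, edgeR adjusted p = 0.000227). In TPM the numbers overlapped for ERLIN1, at 57.2 to 67.5 in number 1 and 50.2 to 71.2 in number 2.

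The clathrin route, the other main coat of endocytosis, had 4 of 20 genes higher and 6 lower in number 2, with a median of -0.10. Over all tested genes 22.8% were higher and 22.6% lower. Of the clathrin genes, HIP1 rose by 0.66 (edgeR adjusted p = 0.000262) and FCHO1 fell by 0.65 (edgeR adjusted p = 0.00119). The clathrin heavy chain CLTC was at -0.04 (edgeR adjusted p = 0.781). Receptors and enzymes known to associate with caveolins were tested in 12 of 13 cases, with a median of 0.09. Among them TGFBR2, a receptor for transforming growth factor beta, rose by 0.32 (edgeR adjusted p = 0.025), and SCARB1, the receptor for high-density lipoprotein, fell by 0.34 (edgeR adjusted p = 0.00819).

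For the actin side, HCLS1, the relative of cortactin in blood cells, lay at 317 ± 19.0 CPM in number 1 and 345 ± 27.8 CPM in number 2 (SD, n = 3 each; log2 0.12, edgeR adjusted p = 0.297). Per length it stood at 223 to 224 TPM in number 1 and 266 to 277 TPM in number 2, above CTTN in every library. The Arp2/3 complex and its activators had 4 of 23 tested genes higher and 2 lower in number 2, with a median of 0.04. Over all tested genes 22.8% were higher and 22.6% lower. ABI2 of the WAVE complex rose by 0.63 (edgeR adjusted p = 0.00123) and WIPF1, the partner of the WAS protein, fell by 0.52 (edgeR adjusted p = 0.000767).

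Genes of podosomes and invadopodia, the adhesive actin structures where cortactin gathers, were lower in number 2 in 10 of 16 cases, higher in 1 (GSN, chosen for mention after its value was seen) and had a median of -0.31. PXN, which encodes the adaptor paxillin, fell from 196 ± 4.41 to 88.3 ± 5.16 CPM (SD, n = 3 each; edgeR adjusted p = 1.61e-05). VCL, the gene of vinculin, fell from 172 ± 9.55 to 109 ± 4.35 CPM (edgeR adjusted p = 0.000217). LSP1, which binds actin in leukocytes, fell from 4.91 ± 0.332 to 0.720 ± 0.272 CPM (edgeR adjusted p = 7.23e-05), though its TPM of 3.32 in the library labelled shCtrl replicate 2 was near the 3.63 of replicate 1. Of 11 tested kinases of the Src, Abl and related families, 1 was higher (FGR) and 4 lower, with a median of -0.14. SRC itself fell from 46.6 ± 0.806 to 25 ± 1.45 CPM (edgeR adjusted p = 0.00015), while LYN was at 0.10 (edgeR adjusted p = 0.33). These lists were drawn up with results of the libraries known. They are set beside the 45.4% of all genes that passed the same test (22.8% higher and 22.6% lower).

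**Figure D4:**
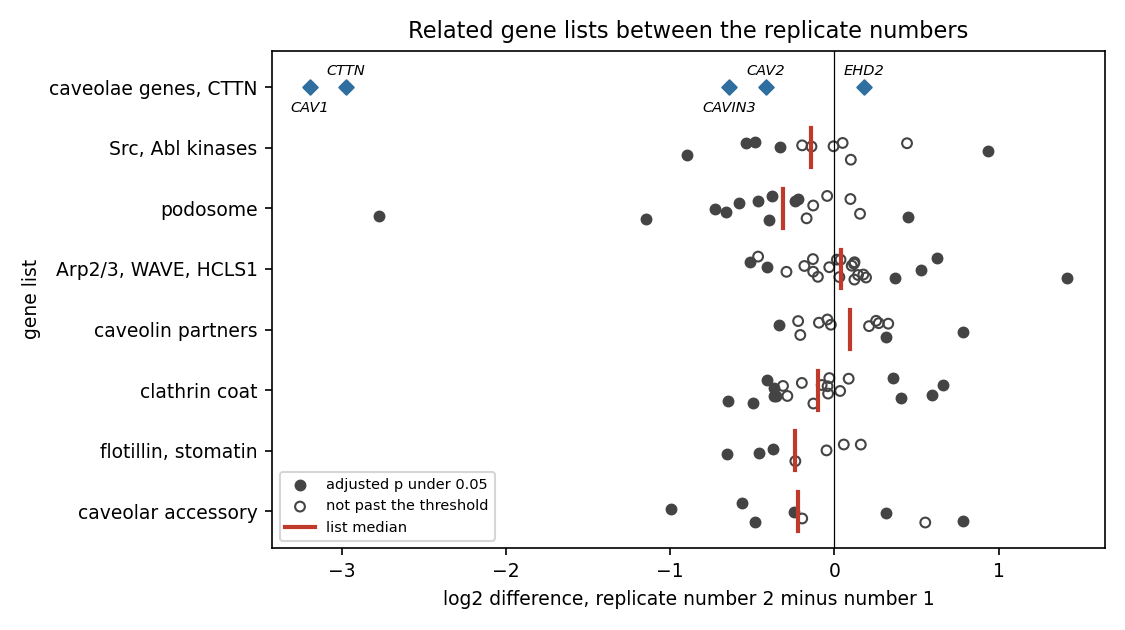
Log2 difference of number 2 from number 1 for the 5 tested members (diamonds) and each tested gene of 7 related lists (circles, filled where edgeR's adjusted p is under 0.05), with a red bar for each list's median. CAV1 and CTTN lie near -3, where LSP1 at -2.77 is the nearest circle, and the list medians lie between -0.31 and 0.09.

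Between the labelled groups, edgeR called none of the genes in these 7 lists, with or without the block. The summed endothelial list ran from 403 to 454 CPM in number 1 and from 288 to 327 CPM in number 2, almost all of it PECAM1, which myeloid cells also express. The fibroblast and smooth muscle list summed to 12.2 to 13.5 against 8.61 to 12 CPM, with 7 of its 11 genes under 1 CPM everywhere. Of its 6 tested genes 0 were higher and 2 lower: PDGFRA fell from 2.97 ± 0.275 to 1.09 ± 0.434 CPM (SD, n = 3 each; edgeR adjusted p = 0.00204) and MYH11 from 3.22 ± 0.384 to 1.61 ± 0.373 CPM (edgeR adjusted p = 0.0057). In TPM the numbers overlapped for PDGFRA and MYH11. The lowest TPM in number 1 and the highest in number 2 were 1.77 and 1.82 for PDGFRA, and 0.703 and 0.962 for MYH11. TAGLN, at 3.53 ± 0.356 and 4.77 ± 0.981 CPM, did not pass the test (edgeR adjusted p = 0.107). The epithelial list summed to 2.46 to 2.82 against 1.48 to 2.71 CPM, and the adipocyte list to 0.289 to 0.685 against 0.123 to 0.840 CPM. Of all tested genes 22.8% were higher and 22.6% lower in number 2, the shares beside which the marker counts stand. The monocytic list summed to 3442 to 3780 against 3821 to 4203 CPM, with 5 of 12 genes higher and 3 lower in number 2. The part of any of these in the difference of CAV1 and CTTN was not tested.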

How the data were processed

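Each library came with a table of estimated counts and TPM for 179973 transcripts, as deposited. The submitters' processing notes name CASAVA, kallisto 0.43.1 and build hg38, with no options. The deposited estimated counts were summed per gene with GENCODE 29 (GRCh38), which matched 163714 transcripts (91.0%). The rest, 3.13 to 3.32% of counts, were left out. Sums were rounded and tested with edgeR 4.0.16 (R 4.3.3; TMM, filterByExpr, quasi-likelihood test, Benjamini-Hochberg over 14497 genes, threshold 0.05), with 1 coefficient per group over all 6 libraries and 3 residual degrees of freedom. CPM uses TMM-adjusted library sizes, and log2 CPM has a prior count of 2. An SE is the log2 fold change over the root of F. The deposited TPM was summed per gene as it stood.

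Replicate numbers come from the titles. Deviations of same-numbered libraries from their group means correlated at 0.597 to 0.727 (3 separate values, since the numbers mirror each other), so the numbers were treated as pairing the libraries, and a fit blocked on number (2 residual degrees of freedom) stands beside the unblocked values. The scripts were tested on simulated data. Alternatives were RLE size factors, DESeq2 1.42.0, other filters, the block and each library left out.

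The members and gene lists were chosen with earlier results of these data known. Named genes are the members, ALKBH5, the 3 genes nearest to each member in pattern, the 2 nearest protein-coding genes per side, up to 4 genes of each list by p and 2 by level, and HCLS1. PACSIN2 and some genes named by role lie outside that rule. The count of changed genes in the list of caveolin-associated receptors is not reported here.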

Additional observations from a re-analysis of the deposited data

How the results depend on the processing

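The counts of genes called between labelled groups changed only with the replicate block, from 0 to 1 for shA5 against shCtrl and from 0 to 1 for A5-res against shCtrl. RLE size factors, DESeq2 and both other filters on low counts called 0 in each of the 3 comparisons. With any single library left out, edgeR called 0 genes without the block, and with the replicate block 1 to 420, 0 to 1005 and 1 to 764 (shA5 against shCtrl, A5-res against shA5 and A5-res against shCtrl). In the same order, the blocked counts were 4, 0 and 2 without shCtrl replicate 1, 1, 0 and 1 without shCtrl replicate 2, 25, 17 and 35 without shA5 replicate 1, and 17, 38 and 36 without shA5 replicate 2. They were 420, 54 and 764 without A5-res replicate 1, and 393, 1005 and 101 without A5-res replicate 2. The cause was not tested. Between replicate numbers it called 3915 to 6811 with a library left out, 3915 without shA5 replicate 1 and 4030 without shA5 replicate 2.

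No member was past the threshold in a group comparison under any setting run, but the sign of small values was not stable. With the block CTTN was at 0.034 for A5-res against shA5, and CAV1 at -0.086 and CAVIN3 at -0.036 for A5-res against shCtrl, each opposite to the value without it. With a library left out and no block, values for shA5 against shCtrl ran from -2.10 to 2.26 for CAV1, -0.15 to 0.38 for CAV2, -0.25 to 0.049 for EHD2 and -2.40 to 1.98 for CTTN. For A5-res against shA5 they ran from -2.87 to 2.15 for CAV1, -0.51 to 1.09 for CAVIN3, -0.12 to 0.023 for EHD2 and -2.10 to 2.33 for CTTN. For A5-res against shCtrl they ran from -2.69 to 2.12 for CAV1, -0.80 to 0.034 for CAV2, -1.0 to 0.60 for CAVIN3, -0.30 to 0.00063 for EHD2 and -2.14 to 1.94 for CTTN. Leaving out 1 library without the block sets libraries of unequal numbers against each other.

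With the replicate block and a library left out, CAV1 ran from -0.17 to 0.24 and CAV2 from -0.24 to 0.47 for shA5 against shCtrl. CAVIN3 ran from -0.44 to 1.02, EHD2 from -0.09 to 0.00047 and CTTN from -0.09 to 0.27 for A5-res against shA5. CAV1 ran from -0.54 to 0.04 and CAVIN3 from -0.92 to 0.53 for A5-res against shCtrl. Depth limits CAV2, CAVIN1 and CAVIN3, which have 61 or fewer counts in every library. It also limits CAV1 in number 2, with 16, 16 and 9 counts in the libraries labelled shCtrl, shA5 and A5-res.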
